A study of Mus musculus with 2 samples.

Results

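The genes of miR-124 and miR-9 were examined, 2 brain microRNAs that are each encoded at 3 places in the mouse genome. Members were taken by gene symbol, with earlier results of these data known. They were Mir124a-1, Mir124a-2 and Mir124a-3, and Mir9-1, Mir9-2 and Mir9-3. These are 6 of the 2202 miRNA genes of GENCODE M21 in the count tables. The tissue was left cerebral cortex of adult B6CASTF1/J mice of 18 to 20 months, the F1 hybrid strain bred from C57BL/6J and CAST/EiJ. There was 1 group of 2 libraries, made from total RNA and limited to fragments shorter than 30 nucleotides. The sex field reads female and the free-text description reads male. Both libraries carry 1 donor identifier and separate biosample identifiers, while the labels number them as biological replicates 1 and 2, so whether the spread between them is technical is not settled. The labels name no treatment and give no second tissue or age to compare, and all p-values given here compare the libraries with each other.

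miRNAs are cut from a hairpin transcript by Drosha and Dicer, and either arm of the hairpin can be loaded into an Argonaute protein, where the seed near its 5′ end pairs with target mRNAs. miR-124 is a hallmark miRNA of neurons and lowers the splicing repressor Ptbp1 during neuronal differentiation. miR-9 acts in neural progenitors and neurons. Its 5p arm targets the neuronal gene silencer REST, and its 3p arm targets the REST cofactor CoREST.

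RefSeq (build GRCm38.p6) held sequences for 3 of the 6 members, the miR-9 genes. Both mature arms were letter for letter the same in Mir9-1, Mir9-2 and Mir9-3. The arms are shown with the seed, bases 2 to 8, in capitals, because they are what all 3 copies share.
miR-9-5p: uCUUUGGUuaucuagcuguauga
miR-9-3p: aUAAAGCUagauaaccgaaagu

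The hairpins around these arms are shown with the mature arms in capitals, because the copies can be told apart only in the lower-case parts. Mir9-1 lies at chr3:88215598-88215686, Mir9-2 at chr13:83738814-83738885 and Mir9-3 at chr7:79505264-79505353, all on the plus strand.
Mir9-1: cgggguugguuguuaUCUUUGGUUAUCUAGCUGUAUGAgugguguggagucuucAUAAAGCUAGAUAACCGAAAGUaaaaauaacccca
Mir9-2: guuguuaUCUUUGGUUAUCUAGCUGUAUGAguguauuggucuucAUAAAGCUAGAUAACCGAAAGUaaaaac
Mir9-3: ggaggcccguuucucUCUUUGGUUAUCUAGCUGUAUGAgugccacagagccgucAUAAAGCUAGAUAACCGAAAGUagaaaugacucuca

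In a global alignment, Mir9-1 and Mir9-2 were identical at 95.8% of aligned bases. Mir9-3 was identical to Mir9-1 at 81.8% and to Mir9-2 at 86.1%. Mir9-3 was therefore the copy that stood apart in sequence.

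The stretches below hold miR-9-5p with 3 bases before it and 5 after it. Capitals mark each position at which the 3 copies are not all alike.
Mir9-1: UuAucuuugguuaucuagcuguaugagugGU
Mir9-2: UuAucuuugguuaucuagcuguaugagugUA
Mir9-3: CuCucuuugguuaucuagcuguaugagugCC

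For miR-9-3p the same is shown with 3 bases before the arm and 6 after it.
Mir9-1: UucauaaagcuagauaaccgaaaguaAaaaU
Mir9-2: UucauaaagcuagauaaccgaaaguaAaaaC
Mir9-3: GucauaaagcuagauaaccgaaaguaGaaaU

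Mir9-3 differed from both other copies at the first base before miR-9-5p and at the second base after miR-9-3p. Mir9-1 and Mir9-2 shared all 7 bases before miR-9-5p that the Mir9-2 hairpin holds. After miR-9-5p all copies shared 3 bases, and the fourth base was different in each. After miR-9-3p, Mir9-1 and Mir9-2 shared 5 bases and differed at base 6. The fewest added bases that set a copy apart from both others were thus 1 for Mir9-3 and 4 for Mir9-1 and Mir9-2. These distances compare the 3 hairpins with each other only. Whether an extended read also matches elsewhere in the genome was not analysed here.

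**Figure D1:**
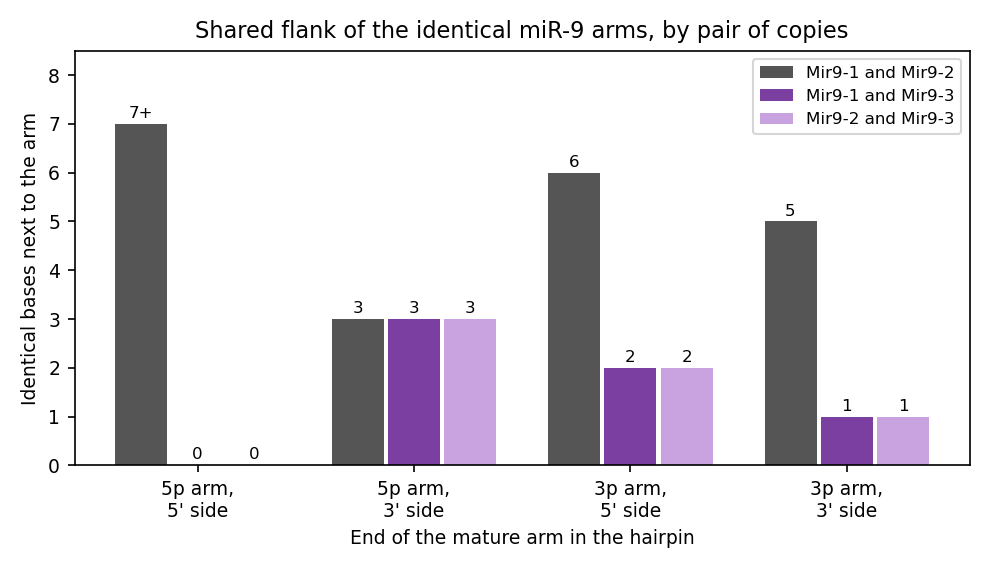
Number of identical bases directly next to each end of the identical miR-9 arms (y axis) for the 4 arm ends (x axis), with 1 bar per pair of copies; 7+ means that the Mir9-2 hairpin ended before a difference. Both pairs with Mir9-3 share 0 bases on the 5′ side of the 5p arm, where Mir9-1 and Mir9-2 share 7.

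Values are read counts on the sense strand of each gene, as deposited, and levels are CPM, the counts per 1000000 summed sense counts over all miRNA genes. That sum was 5166667 in replicate 1 and 4459993 in replicate 2, and the libraries held 14842903 and 12785704 reads in all. A count of 3, taken as the limit that a count of 0 allows, equals 0.581 CPM and 0.673 CPM in these libraries. Intervals are exact 95% intervals and cover counting error only. The tissue label was checked against miRNA markers: all 5 neuronal markers were expressed, at 76044 and 63248 CPM in sum, and both oligodendrocyte markers at 3945 and 3862 CPM. The liver marker stood at 54.6 and 60.1 CPM, and of 3 striated muscle markers Mir206 gave 18.2 and 65.5 CPM while Mir1a-1 and Mir133a-2 had no count. The endothelial marker Mir126a stood at 21257 and 10411 CPM, and the pancreas and endocrine marker Mir375 at 310.5 and 256.5 CPM. Markers of microglia and leukocytes summed to 1351 and 1281 CPM, and those of red cells to 79.2 and 52.7 CPM. The 3 markers of retina and sensory organs, Mir183, Mir96 and Mir182, of which 2 were expressed, summed to 1007 and 105.2 CPM.

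Few reads were counted at the miR-124 genes. Mir124a-1 (ENSMUSG00000065597.1, chromosome 14, 64590657 to 64590741, inside an exon of the non-coding host gene Mir124a-1hg) had 21 counts in replicate 1, or 4.06 CPM (2.52 to 6.21). In replicate 2 it had 6 counts, or 1.35 CPM (0.494 to 2.93). The gene was the highest of its group in both libraries, and its intervals in the 2 libraries overlap. In CPM, the summed markers of neurons, red cells, retina and sensory organs, endothelium and pancreas were also higher in replicate 1. Those of oligodendrocytes (3945 and 3862 CPM) and of microglia and leukocytes (1351 and 1281 CPM) were higher there by little. The direction of these close sums turns with the TMM scaling used in the tests below. The sums of liver and striated muscle were higher in replicate 2. Single genes of a list did not all go with its sum. The part of these lists in the difference at Mir124a-1 was not tested.

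Mir124a-2 (ENSMUSG00000093073.1, chromosome 3, 17795662 to 17795770, partly in an exon of Mir124-2hg) had 1 count in replicate 1 and 2 counts in the other library. Mir124a-3 (ENSMUSG00000065454.2, chromosome 2, 180894040 to 180894107) had 2 counts and 1 count, and its last 3 bases overlap an exon of the lincRNA Gm27032. Both genes lay under the limit of 3 counts in both libraries, so no fold between the libraries is given. In replicate 1 the interval of Mir124a-1 lay above those of Mir124a-2 (0.00490 to 1.08 CPM) and Mir124a-3 (0.0469 to 1.40 CPM). In replicate 2 the intervals of all 3 copies overlapped, so their order was not detectable at this depth.

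The 3 miR-124 genes together had 24 and 9 counts in replicates 1 and 2, which is 3.33 ± 1.86 CPM (mean ± SD, n = 2). Mir124a-1 held 87.5% of these counts in replicate 1 (67.6% to 97.3%) and 66.7% in replicate 2 (29.9% to 92.5%). The shares did not differ beyond counting error by Fisher's exact test (two-sided, p = 0.309, and 0.309 adjusted over 2 such comparisons).

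The miR-9 genes had more counts and a clear order. Mir9-3 (ENSMUSG00000093238.1, in an intron of the lincRNA gene Mir9-3hg on chromosome 7) had 299 counts in replicate 1, or 57.9 CPM (51.5 to 64.8). The other library gave 456 counts, or 102.2 CPM (93.1 to 112.1). Mir9-3 was the highest member in both libraries, and its level was higher in replicate 2, where the intervals do not overlap. The liver marker and the muscle marker Mir206 were also higher in replicate 2. All other marker sums, those of neurons included, were higher in replicate 1 in CPM. Those of oligodendrocytes and of microglia and leukocytes were so by little. Single genes did not all go with their sum. Of the markers of neurons, oligodendrocytes, and microglia and leukocytes, Mir137, Mir338, Mir142 and Mir223 were higher in replicate 2. The other genes of those lists, Mir128-1, Mir138-1, Mir138-2, Mir132, Mir219a-2 and Mir150, were higher in replicate 1 in CPM. The part of these lists in the difference at Mir9-3 was not tested.

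Mir9-1 (ENSMUSG00000106493.1, in an intron of the lincRNA gene Gm3764 on chromosome 3) had 85 counts, or 16.5 CPM (13.1 to 20.3), in replicate 1 and 84, or 18.8 CPM (15.0 to 23.3), in replicate 2. Mir9-2 (ENSMUSG00000065424.2, in an exon of the lincRNA gene C130071C03Rik on chromosome 13) had 12 counts in each library, or 2.32 CPM (1.20 to 4.06) and 2.69 CPM (1.39 to 4.70). The order Mir9-3, Mir9-1, Mir9-2 held in both libraries with intervals that did not overlap between copies. It also held per length: at 64.3, 18.5 and 3.23 CPM per 100 annotated bases in replicate 1, and at 113.6, 21.2 and 3.74 in replicate 2.

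**Figure D2:**
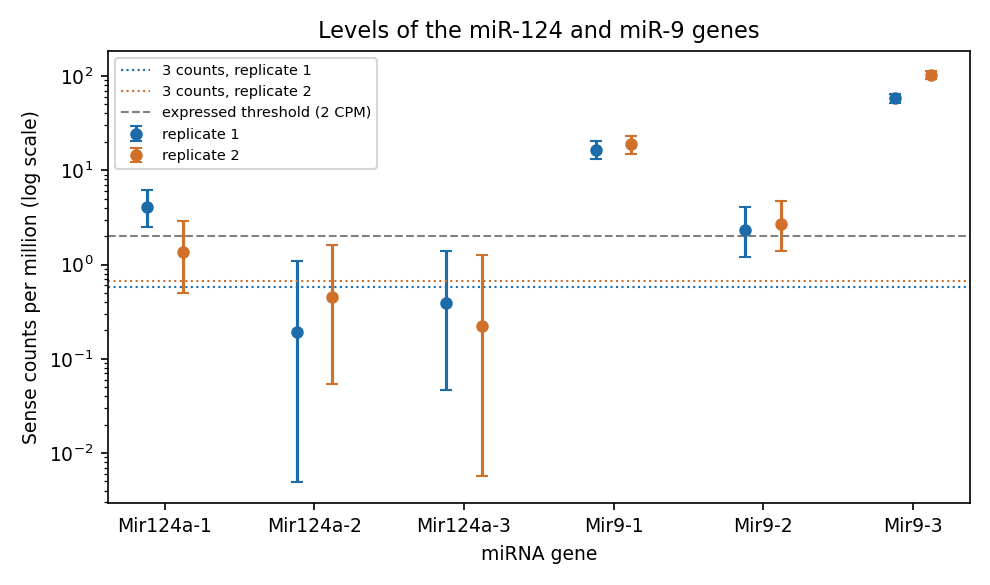
Level of each of the 6 genes in CPM of sense counts (y axis, log scale), with 1 point per library and exact 95% Poisson intervals; dotted lines mark 3 counts and the dashed line marks 2 CPM. Mir9-3 is highest at 57.9 and 102.2 CPM, and Mir124a-2 and Mir124a-3 lie below the dotted lines in both libraries.

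In sum the 3 miR-9 genes had 396 counts in replicate 1 and 552 in replicate 2, or 100.2 ± 33.3 CPM (mean ± SD, n = 2). Mir9-3 held 75.5% of them in replicate 1 (71.0% to 79.7%) and 82.6% in replicate 2 (79.2% to 85.7%). The share was higher in replicate 2 by Fisher's exact test (two-sided, p = 0.00879, and 0.0176 adjusted over 2 comparisons). Mir9-1 held 21.5% and 15.2%, and Mir9-2 held 3.03% and 2.17%.

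The copy with the most counts was thus the copy that needs the fewest added bases, 1, to differ from both others. Mir9-1 and Mir9-2 both need 4 and had unequal counts, 85 and 12 in replicate 1 and 84 and 12 in replicate 2. This is a description of 3 genes, and the part of the sequence differences in the counts was not tested.

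A gene counted as expressed where both libraries gave at least 2 CPM. By this rule 3 of the 6 members were expressed, the miR-9 genes, where 18.6% of all 2202 miRNA genes were. Mir124a-1 passed in replicate 1 only. By mean level Mir9-3 ranked 208, Mir9-1 288, Mir124a-1 414, Mir9-2 420, Mir124a-2 639 and Mir124a-3 643. The median of the 409 expressed genes was 94.6 and 61.0 CPM in replicates 1 and 2. Mir9-3 lay below this median in replicate 1, at 57.9 CPM, and above it in replicate 2, at 102.2 CPM.

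**Figure D3:**
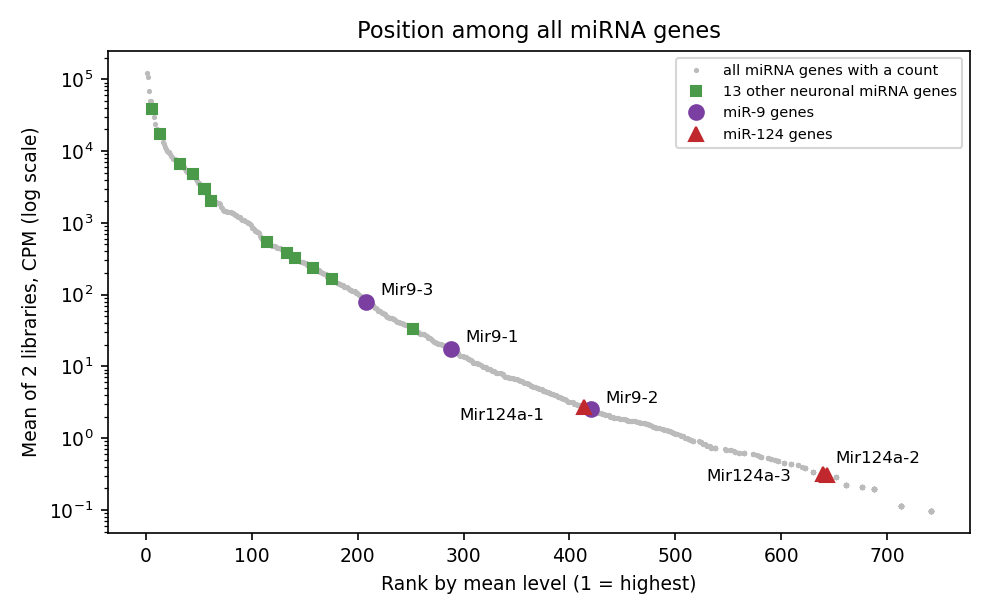
Mean level of the 2 libraries in CPM (y axis, log scale) against rank (x axis) for all miRNA genes with a count, with the miR-124 genes as triangles, the miR-9 genes as circles and 13 other neuronal miRNA genes as squares. The neuronal genes run from rank 6 to rank 252, the miR-9 genes from 208 to 420 and the miR-124 genes from 414 to 643.

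A list of 13 other miRNA genes known from neurons was set beside the members. All 13 were expressed, with a median level of 2034 CPM over the mean of both libraries, 3059 CPM in replicate 1 and 902.0 CPM in replicate 2. Mir132, induced by neuronal activity, was the highest at rank 6, and Mir218-1, a copy of a motor neuron miRNA, was the lowest at 33.0 ± 12.7 CPM (SD, n = 2), or rank 252. RefSeq lists no mature arm of Mir132, Mir137, Mir153, Mir212 or Mir134 in another gene. Of the others, 7 share some of their mature arms with another gene and 1, Mir129-1, shares all that are listed.

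Among these pairs of neuronal copies, Mir128-2 stood at 2959 ± 271.6 CPM and Mir218-2 at 167.0 ± 63.2 CPM. Mir129-1 had 472.6 CPM in replicate 1 and 184.5 CPM in replicate 2, while its partner Mir129-2 had 3167 and 902.0 CPM. Mir129-1, the copy with all its listed arms shared, was the lower in both libraries. This describes a single pair. Mir9-3 was above 1 of the 13 genes, Mir218-1, by mean level, and Mir9-1 was below all of them.

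Sharing of mature arms was looked up for all genes with a RefSeq sequence. Such a match existed for 43.5% of the 2202 gene rows, so a comparison over all genes is void, and for 84.6% of the expressed genes. Of 35 matched genes whose every listed arm is identical to an arm of another gene, 7 were expressed, and 3 of these were the miR-9 genes. The other 4, named after their values were seen, were the oligodendrocyte miRNA gene Mir219a-2 at 2032 CPM, Mirlet7c-2 at 1334 CPM, Mir129-1 at 328.6 CPM and Mir3074-1 at 5.34 CPM. The median of the 7 was 80.1 CPM, which is the value of Mir9-3, and that of the 4 genes other than miR-9 was 831.4 CPM. The 37 expressed genes that share some of their listed arms had a median of 85.7 CPM. The 302 expressed genes with no listed arm shared had a median of 100.9 CPM. Their interquartile range ran from 11.9 to 903.4 CPM, and their maximum was 123867 CPM. These classes rest on the arms that RefSeq lists, and whether its listing is complete was not checked. The classes were not tested against each other, and the order of their medians turned with the library and the definition of sharing: all shared against none shared, the medians were 57.9 and 108.6 CPM in replicate 1, and 102.2 and 65.6 CPM in replicate 2. By a shared hairpin stretch of 20 bases, the medians were 141.0 CPM for 67 sharing genes and 88.9 CPM for 281 others. These sets are not those of the arm classes.

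Among the genes with a RefSeq sequence, few had a mature sequence found at 3 or more places. RefSeq held no sequence for the miR-124 genes, so they are not in this search. Besides both arms of miR-9, 7 mature sequences were identical in 3 or more genes. The 19 further genes of these with a row in the tables were not expressed. By the same rule 18.6% of all 2202 miRNA genes were, and 346 of the 958 with a RefSeq sequence. A total of 17 of them had no count in either library, among them all 3 genes that hold the 3p arm of miR-199, a miRNA of mesenchymal cells. The remaining pair was Mir344d-1, with 0 counts and 3 counts, and Mir344d-3, with 1 and 3. The miR-9 genes were the only ones of this kind among those with a RefSeq sequence that were expressed. Of these, Mir9-2 passed on 12 counts in each library, and its intervals include the threshold of 2 CPM. Reads with several places in the genome are not split by gene, so a count of 0 here does not measure the level of the mature sequence.

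In the deposited tables, multi-place reads stand on a line of their own and are not split by gene. That line held 6203588 reads in replicate 1 and 5928954 in replicate 2, which is 1.20 and 1.33 reads for each sense count of a miRNA gene. Set against this line, the miR-124 genes had 3.87 and 1.52 counts for each 1000000 such reads, and the miR-9 genes 63.8 and 93.1. For scale, 1% of the line is 62036 reads in replicate 1 and 59290 in replicate 2, more than the counts of all but 17 and 14 miRNA genes. How many of these reads belong to miR-124 or miR-9 cannot be read from the tables, and the part of this line in the low gene counts was not tested. The levels above are levels of reads listed at 1 gene, and no total level of either mature miRNA is given.

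The strand column decided whether Mir9-1 was seen. Gm25641 (ENSMUSG00000092876.1), annotated as a miRNA gene, lies on the minus strand at 88215589 to 88215696 of chromosome 3 and covers all 89 bases of Mir9-1. In the column that ignores strand both genes had 0 counts in both libraries. On the sense strand Mir9-1 had 85 and 84 counts, and Gm25641 had 0 in both libraries, which allows up to 0.581 and 0.673 CPM of reads listed at that gene. The counts opposite to Gm25641 were 85 and 84, the same as those of Mir9-1. Of 26 expressed genes with a miRNA gene on the opposite strand, 24 were likewise at 0 without strand. Mir9-2 and Mir9-3 have no such annotated partner in the tables, and their unstranded counts were 12 and 12, and 299 and 458.

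RefSeq assigns the minus strand product the name miR-9b. Its 2 arms at Gm25641 are shown with seed capitals, because they are read from the same base pairs as miR-9.
miR-9b-5p: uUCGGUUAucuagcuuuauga
miR-9b-3p: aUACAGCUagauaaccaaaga

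The miR-9b-3p stretch (chromosome 3, 88215613 to 88215633) lies opposite miR-9-5p (88215613 to 88215635). RefSeq also lists miR-9b-3p opposite the 5p arm of Mir9-3 and of Mir9-2, under Gm51285 and Gm51268, which have no row in the count tables. Reads opposite to Mir9-3 numbered 0 in replicate 1 and 2 in replicate 2, and there were none opposite to Mir9-2. As miR-9b-3p is the same sequence in 3 genes, counts at a single locus do not measure its level.

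**Figure D4:**
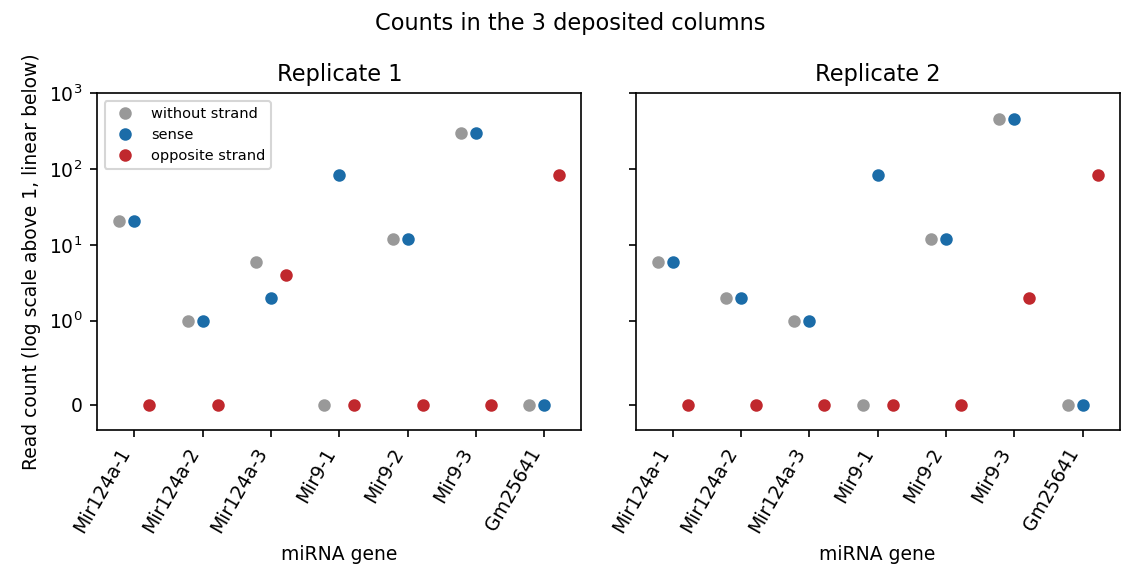
Read counts (y axis, linear up to 1 and log above) in the 3 deposited columns for the 6 genes and for Gm25641, with 1 panel per library. Mir9-1 has 85 and 84 sense counts and 0 without strand, and the same 85 and 84 appear as opposite-strand counts of Gm25641.

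A pair of miRNA genes lies within 50 kb of a member on the same strand, Mir3078 and Mir3093. Mir3078 starts 444 bases from Mir124a-1, inside the same host gene, and had 38 counts in replicate 1 and 11 counts in replicate 2. Mir124a-1 made up 35.6% of the counts of this pair in replicate 1 (23.6% to 49.1%) and 35.3% in replicate 2 (14.2% to 61.7%). Both neighbours were lower in replicate 2, and their proportion was alike within counting error.

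Mir3093 lies 341 bases from Mir9-1 within Gm3764 and had 275 and 137 counts, or 42.0 ± 15.9 CPM (SD, n = 2). RefSeq lists both of its mature arms in no other gene. Mir9-1 made up 23.6% of this pair in replicate 1 (19.3% to 28.3%) and 38.0% in replicate 2 (31.6% to 44.8%). Here the proportion was higher in replicate 2, with intervals that do not overlap.

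Genes whose counts summed to at least 20 over both libraries were compared between the libraries with a two-sided exact binomial test on TMM-scaled totals, with Benjamini-Hochberg adjustment over 438 genes. Of the 4 members tested, 2 passed at an adjusted p under 0.05, 1 in each direction, where 67.1% of all tested genes did, 32.6% higher in replicate 2 and 34.5% higher in replicate 1. Mir9-3 was higher in replicate 2 by 0.95 on the log2 scale (95% interval 0.74 to 1.17, exact binomial adjusted p = 1.03e-18). Mir124a-1 was lower in replicate 2, with a log2 ratio of -1.38 (-3.06 to -0.11, exact binomial adjusted p = 0.0464). Its call was lost at a pooled count minimum of 10, with an exact binomial adjusted p of 0.0516.

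Mir9-1 had a log2 ratio of 0.32 (-0.13 to 0.78, exact binomial adjusted p = 0.213) and Mir9-2 of 0.34 (-0.94 to 1.63, exact binomial adjusted p = 0.725), and neither passed. The neighbours both passed towards replicate 1, Mir3078 with a log2 ratio of -1.40 (exact binomial adjusted p = 0.00385) and Mir3093 with -0.66 (exact binomial adjusted p = 1.52e-05). Of the 13 neuronal genes, 5 passed towards replicate 2 and 7 towards replicate 1, with a median log2 ratio of -0.06, where the median of all tested genes was -0.08. The test knows counting noise alone, and these differences are between 2 libraries of 1 group.

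The expressed genes nearest in level to Mir9-3 in both libraries, by Euclidean distance on log2(CPM + 1) over the 2 libraries, were Mir142 (distance 0.15), Mir101a (0.38) and Mir3068 (0.41). Nearest to Mir124a-1 among the expressed genes were Gm47295 (0.37), Mir6926 (0.48) and Mir6977 (0.48). Mir124a-1 is itself not in that set, and genes under the expressed threshold, some of them nearer to it, were not searched. With 2 libraries this likeness is a likeness of level.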

How the data were processed

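The authors deposited 1 table of read counts per library, with no normalization; per the file listing beside them, mm10 and GENCODE M21 were used. Aligner and counter: not given in the sources used here. The stranded column with the larger total was taken as sense. The 4 lines that name no gene, 65.2% and 65.1% of reads, stayed out of totals and tests. Symbols and positions came from GENCODE M21, whose miRNA genes matched all 2202 rows, and sequences from RefSeq (GRCm38.p6).

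CPM, exact Poisson and binomial (Clopper-Pearson) intervals, Fisher's exact test and the exact binomial test were computed with scipy 1.17.1. TMM totals came from edgeR 4.0.16 and size factors from DESeq2 1.42.0, and log2 ratios add 0.5 to each count. With 1 group, no contrast between conditions could be fitted. The binomial test was tried on simulated data that held counting noise alone, which the test itself assumes. That trial therefore says nothing about further spread between libraries. Members, lists and tests were chosen with earlier results of these data known. Named genes were the members, the neuronal list, genes of mature sequences found in 3 or more genes, and host and neighbouring genes. Also named were the 3 expressed genes nearest in level.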

Additional observations from a re-analysis of the deposited data

Results flagged for a closer look

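Signal lay outside the sense counts above the limit of 3 counts. The line for multi-place reads, which names no gene, held 6203588 and 5928954 reads. Opposite to Mir124a-3, 4 reads were counted in replicate 1, against 2 on its sense strand, and none in replicate 2.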

How the results depend on the processing

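No paired analysis was possible because there is 1 group. Without replicate 1 or 2, the miR-124 sum ran from 2.02 to 4.65 CPM, the miR-9 sum from 76.6 to 123.8 CPM, the Mir124a-1 share from 66.7% to 87.5%, the Mir9-3 share from 75.5% to 82.6%, the median of expressed genes with all arms shared from 57.9 to 102.2 CPM, that of genes with none shared from 65.6 to 108.6 CPM, and reads with several places per sense count from 1.20 to 1.33. Between 3 and 4 members were expressed. The number was 4 at 1 CPM, and 2 at 5 CPM, at 10 CPM and with all reads as the denominator.

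With all reads as the CPM denominator, the miR-124 sum was 1.16 and the miR-9 sum 34.9, and reads with several places were 0.441 per read. With those reads added to the gene counts as denominator, the miR-9 sum was 44.0. These denominators are larger by construction. Without strand, Mir9-3 held 96.8% of miR-9 counts, since Mir9-1 was then at 0. A shared stretch of 20 bases in the hairpin, in place of identical arms, gave a median of 141.0 CPM for sharing genes and 88.9 CPM for the rest; the cause was not tested. The order of the class medians, with sharing genes below the rest, therefore turned under this setting and without replicate 1. The stretch setting sorts the genes into other sets than the arms do. With a pooled count minimum of 10, or none, 1 member differed between the libraries, as more genes were tested. No log2 ratio of the 4 members tested changed sign under the settings run. Mir124a-2 and Mir124a-3 were not among them. Depth limits the order of the miR-124 copies.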
